A study of Mus musculus with 21 samples.

Results

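Binding of the glucocorticoid receptor was described here at 5 genes of hepatic fatty acid oxidation and ketone production, Acsl1, Cpt1a, Bdh1, Lpin1 and Angptl4. Overlapping peaks of 18 receptor ChIP-seq peak lists were merged into sites, and a site was given to one of these genes if that gene's span was the nearest protein-coding span (mm10) and lay within 50 kb of the site's centre. This gave 18 of 7398 sites, 6 for Lpin1, 6 for Acsl1, 3 for Cpt1a, 2 for Bdh1 and 1 for Angptl4. The accepted site farthest from its gene was 35.26 kb past Bdh1, and the next one beyond the limit was 61.44 kb from Acsl1, with a peak in 5 DEX libraries.

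The tissue was snap-frozen liver of C57BL/6J mice, with no genetic change named in the labels. Mice breathed normal air, or air with 7% oxygen during 6 h or 24 h. They were then injected intraperitoneally with the synthetic glucocorticoid dexamethasone (DEX, 10 mg/kg) or with phosphate-buffered saline (PBS) as vehicle. Livers were taken 2 h later, and hypoxic mice stayed at 7% oxygen in between. Each of the 6 groups (normoxia, 6 h hypoxia and 24 h hypoxia, each with DEX or PBS) held 3 biological replicates. Every list compares 1 library with an input of the same oxygen condition, so all libraries of one condition share 1 input. Whole liver holds several cell types, so fewer cells with bound receptor and less binding per cell cannot be told apart. The lists hold no expression values against which the tissue label could be checked. Sites beside marker genes that entered the DEX test numbered 5 for hepatocytes, 1 for endothelium and 0 for Kupffer cells, stellate cells and cholangiocytes.

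In the fasted liver, long-chain fatty acids are activated to acyl-CoA, carried into mitochondria through the carnitine shuttle, shortened by beta-oxidation and turned in part into ketone bodies for export. Acsl1 encodes the main acyl-CoA synthetase of liver, Cpt1a the carnitine acyltransferase that controls mitochondrial entry, and Bdh1 the mitochondrial dehydrogenase that makes beta-hydroxybutyrate from acetoacetate. Lpin1 encodes lipin, a phosphatidate phosphatase that also acts in the nucleus as a partner of the fatty acid-sensing receptor PPAR alpha, and Angptl4 encodes a secreted inhibitor of lipoprotein lipase. Glucocorticoids are among the hormones that rise in fasting, and their receptor binds DNA as a ligand-activated transcription factor, mostly away from gene starts.

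The RefSeq promoter table (GRCm38.p6, the assembly behind mm10) matched 4 of the 5 genes with 6 transcription starts. None of the 18 sites overlapped the 250 bases before these starts (0 of 6 windows). The windows of the first start of each of the 4 genes are shown because they mark the listed starts from which the distances of the sites below are counted. They are written 5′ to 3′ on the gene's strand and end 1 base before the start.
Acsl1, chr8:46470787-46471036, plus strand: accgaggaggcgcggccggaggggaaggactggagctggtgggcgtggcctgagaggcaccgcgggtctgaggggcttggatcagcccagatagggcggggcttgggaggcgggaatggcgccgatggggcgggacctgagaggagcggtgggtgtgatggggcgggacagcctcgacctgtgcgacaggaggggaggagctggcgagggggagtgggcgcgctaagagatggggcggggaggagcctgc
Cpt1a, chr19:3323051-3323300, plus strand: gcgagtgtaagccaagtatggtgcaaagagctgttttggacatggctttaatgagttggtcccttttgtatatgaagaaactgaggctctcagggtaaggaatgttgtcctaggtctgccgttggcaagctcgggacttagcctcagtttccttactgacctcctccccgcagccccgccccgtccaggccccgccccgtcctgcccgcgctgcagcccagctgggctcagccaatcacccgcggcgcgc
Bdh1, chr16:31422047-31422296, plus strand: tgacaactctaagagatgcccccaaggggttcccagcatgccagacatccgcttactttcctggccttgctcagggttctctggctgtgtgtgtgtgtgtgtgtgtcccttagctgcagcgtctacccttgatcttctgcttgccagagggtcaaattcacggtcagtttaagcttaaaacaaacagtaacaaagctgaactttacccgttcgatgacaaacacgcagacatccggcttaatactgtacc
Lpin1, chr12:16610967-16611216, minus strand: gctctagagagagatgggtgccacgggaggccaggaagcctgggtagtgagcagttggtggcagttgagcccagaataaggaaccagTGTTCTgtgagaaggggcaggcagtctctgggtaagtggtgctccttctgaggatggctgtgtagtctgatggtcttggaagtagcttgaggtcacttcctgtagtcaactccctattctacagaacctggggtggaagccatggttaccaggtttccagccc
The capitals in the Lpin1 window mark a match, on the opposite strand, to AGAACA, one arm of the receptor's palindromic response element. This was the only match among the 6 windows, and AGAACA occurred in 16.08% of all 32851 promoter windows of that length. The full palindrome GNACANNNTGTNC had 0 matches in the 6 windows and occurred in 0.39% of all windows. The core ACGTG of the element bound by hypoxia-inducible factors (16.57% of all windows) and AGGTCANAGGTCA, the direct repeat bound by PPAR alpha (0.03%), also had 0 matches. Both strands were searched for each motif. Matches describe letters, not bound sites, and the bases of the receptor sites themselves were not analysed here. The nearest receptor site ended 382 bp before the Acsl1 window, 2.34 kb before that of Bdh1 and 2.71 kb before that of Cpt1a. The nearest site to the Lpin1 window lay 7.3 kb upstream of it.

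**Figure D1:**
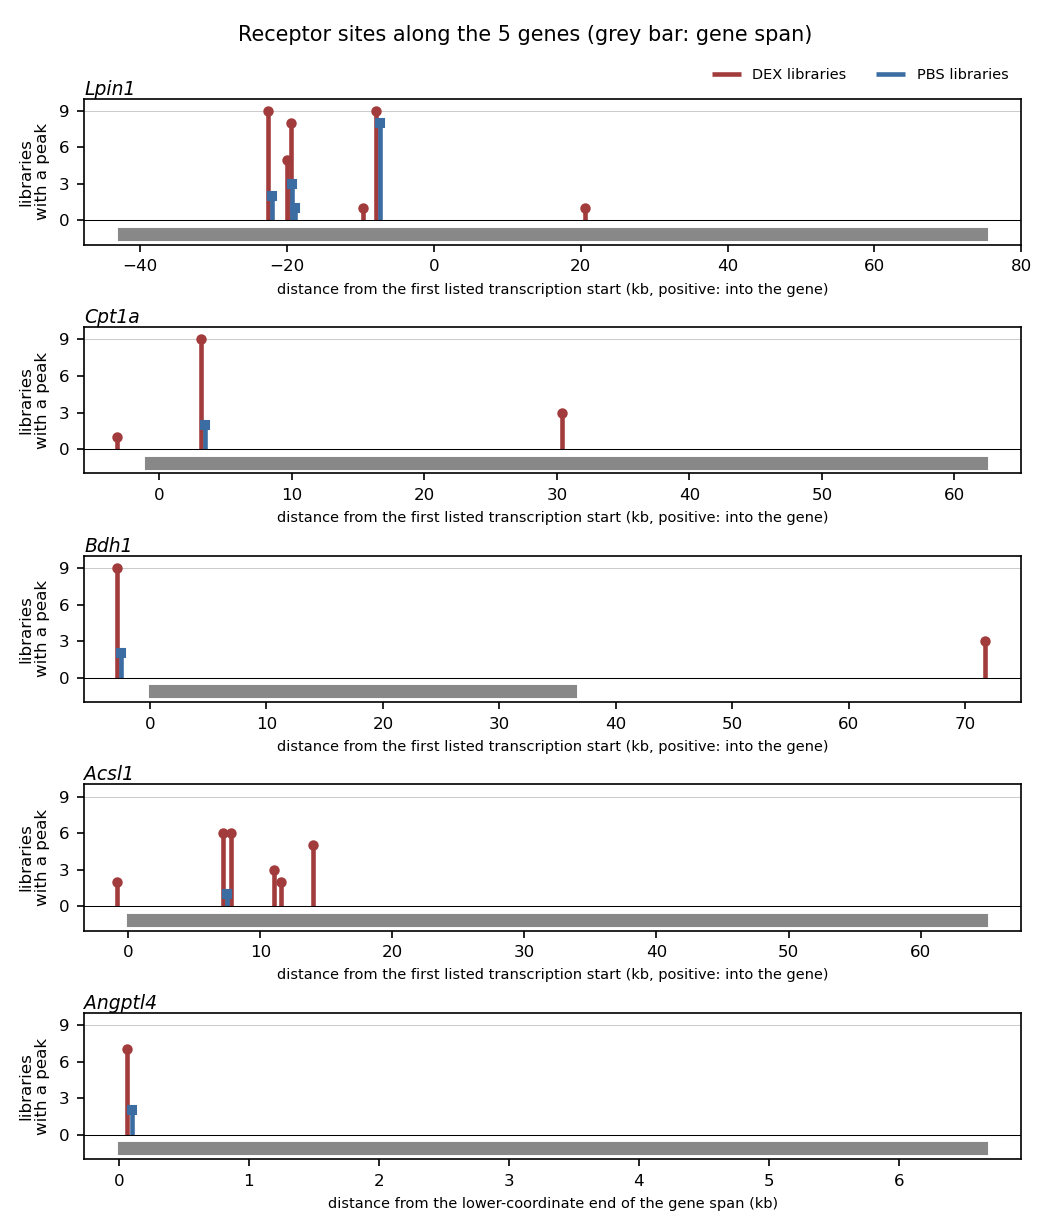
Receptor sites along each gene, with distance in kb on the horizontal axis and the number of libraries with a peak there on the vertical axis (of 9 with DEX, red circles, and of 9 with PBS, blue squares). Grey bars are gene spans. In Lpin1 the sites with the most libraries lay 7.69 to 22.41 kb upstream of the listed start but inside the span, and 5 of the 6 Acsl1 sites lay inside the gene, 7.28 to 14.12 kb downstream of its start.

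Of the 18 sites, 14 lay inside a gene span, or 77.78%, against 66.76% of all sites. A peak was present in all 9 DEX libraries at 4 sites (2 in Lpin1, 1 in Cpt1a and 1 upstream of Bdh1), and 3 sites were called in 1 library only. Of all 7398 sites, 12.64% were called in all 9 DEX libraries and 59.06% in 1 library only. At 10 sites no PBS library had a peak. Acsl1 and Lpin1 were among the 47 genes (0.97% of 4845 genes with a site) to which 6 or more sites were assigned, where the median was 1. DEX libraries held 5772670 to 13181686 tags and PBS libraries 8667179 to 43645787. Normoxia PBS replicate 1 was the deepest library and stood apart in peak number (3915, against 78 to 751 in the other PBS libraries). It was also called with other settings. Its peak size was 280 bp, larger than in any other library, and its limit was 2 tags per bp, against 1 elsewhere. Its peaks and tag counts are therefore not fully comparable with those of the other libraries, and the effect of these settings was not tested. Because each peak needed 50 unscaled tags, this minimum amounted to 37.9 to 86.6 normalized tags with DEX and 11.5 to 57.7 with PBS, the lowest being that of normoxia PBS replicate 1. A peak also had to pass the caller's fold and p-value criteria, so a missing peak sets no upper limit on the level. Normalized tags here are the authors' tag counts per 10000000 tags of a library.

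**Figure D2:**
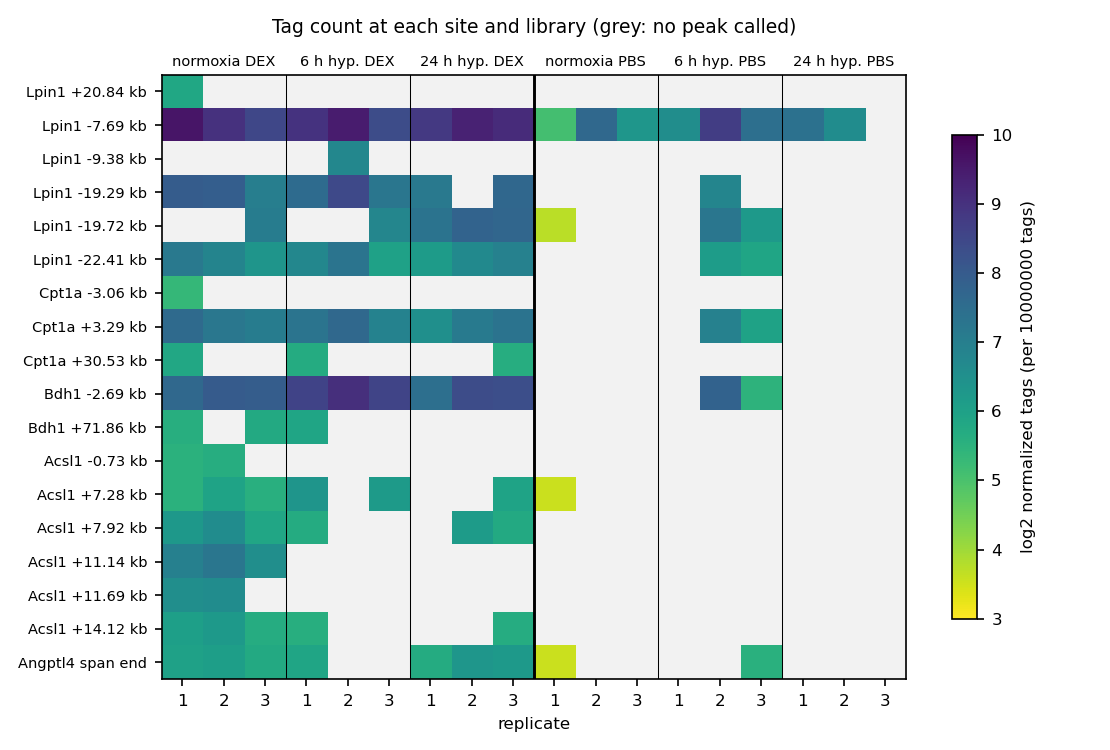
Normalized tag count (log2 colour scale) of the 18 sites (rows, named by distance from the first listed start) in the 18 libraries (columns, by group and replicate), with grey where no peak was called. DEX libraries fill 4 rows, PBS peaks gather in 6 h hypoxia replicates 2 and 3 and normoxia replicate 1, and the Acsl1 rows are filled mainly in normoxia with DEX.

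The comparison of DEX with PBS asked where the injected glucocorticoid brought the receptor to these genes. With DEX, peaks were called more often at 6 of the 13 member sites that entered the test, in Acsl1, Cpt1a, Bdh1 and Lpin1, and less often at 0. Each site was tested with an exact two-sided Cochran-Mantel-Haenszel test that kept the oxygen conditions as strata, with Benjamini-Hochberg adjustment over 2563 sites. Across all sites tested, 55.3% were called more often with DEX and 0.0390% less often, and the median difference in the share of libraries was 0.556 both for the 13 member sites and for all sites. The members' share is thus near the background. Without normoxia PBS replicate 1, 8 of the 13 were called, beside 1492 of the 2520 sites tested in the whole series.

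At Acsl1, DEX peaks were low and PBS peaks nearly absent. The site 7.92 kb downstream of the first start (chr8:46478831-46479087) held 76.6, 96.4 and 58.1 normalized tags in normoxia with DEX, 51.6 in 6 h hypoxia replicate 1, and 71.2 and 53.8 in 24 h replicates 2 and 3. It had no peak in the 9 PBS libraries, nor in the other 3 DEX libraries. The count of 6 of 9 against 0 of 9 gave an exact adjusted p of 0.0216. A further site 14.12 kb downstream (chr8:46485043-46485262) held 66.0, 74.4 and 51.1 tags in normoxia, 48.9 in 6 h replicate 1 and 50.6 in 24 h replicate 3. No PBS library had a peak there, and 5 of 9 against 0 of 9 gave an exact adjusted p of 0.0452. Leaving out 6 h DEX replicate 1 or 24 h DEX replicate 3 moved that value to 0.0739 or 0.0785. With replicate numbers added as strata (a replicate block), the exact adjusted p was 0.0657 at the first of these sites and 0.106 at the second. The remaining 4 Acsl1 sites did not pass or were not tested. Of these, the site 7.28 kb downstream (chr8:46478156-46478476) held 46.3, 61.1 and 48.0 tags in normoxia with DEX, 82.2 and 73.3 in 6 h replicates 1 and 3, and 60.9 in 24 h replicate 3. Its 1 PBS peak, in normoxia replicate 1, held 11.7 tags, a level that no DEX library could report (exact adjusted p = 0.0677). Without that PBS library its exact adjusted p was 0.02.

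At Cpt1a, a site 3.29 kb downstream of the start and inside the gene (chr19:3326481-3326702) carried the receptor in every DEX library. It held 190.4, 148.9 and 133.9 normalized tags in normoxia with DEX, 159.1, 199.2 and 119.9 after 6 h of hypoxia, and 90.6, 142.4 and 161.4 after 24 h. With PBS it was called in 6 h replicate 2 at 121.7 tags and in 6 h replicate 3 at 62.7, and in no normoxia or 24 h library. The higher PBS value lay within the DEX range. Detection in 9 of 9 against 2 of 9 libraries gave an exact adjusted p of 0.00859. Its mean DEX level, 149.5 ± 33.6 (SD, n = 9), stood at percentile 54.9 of the 935 sites called in all 9 DEX libraries, whose median was 139.8. The other 2 Cpt1a sites were weaker. One lay 30.53 kb downstream and held 49.8 to 55.4 tags in 3 DEX libraries, 1 of each oxygen condition (exact adjusted p = 0.281). The other, upstream of the start, held 40.2 tags in normoxia DEX replicate 1 alone.

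At Bdh1, the main site lay 2.69 kb upstream of the first start and outside the span (chr16:31419503-31419711). It held 199.5, 253.9 and 243.8 normalized tags in normoxia with DEX, 382.8, 530.1 and 378.7 after 6 h of hypoxia, and 175.2, 331.1 and 321.1 after 24 h. All 9 DEX libraries had the peak, and the 3 values after 6 h exceeded the other 6. With PBS it was called in 6 h replicates 2 and 3, at 224.2 and 44.7 tags, and in no other library. The exact adjusted p of 9 of 9 against 2 of 9 was 0.00859. With a mean of 313 ± 110 (SD, n = 9) it stood at percentile 88.0 of the sites called in all DEX libraries. The second Bdh1 site, past the far end of the gene, held 48.6 to 58.6 tags in 3 DEX libraries (exact adjusted p = 0.23).

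Lpin1 held the strongest site of the 5 genes and the one with receptor peaks in most PBS livers. This site lay 7.69 kb upstream of the listed start (chr12:16618518-16618798), which is itself inside the gene span. It held 775.3, 512.6 and 363.8 normalized tags in normoxia with DEX, 499.1, 708.5 and 329.2 after 6 h of hypoxia, and 459.8, 647.5 and 567.9 after 24 h. With PBS it held 34.1, 198.4 and 80.0 tags in normoxia, 94.5, 423.6 and 173.7 after 6 h, and 168.8 and 97.2 in 24 h replicates 1 and 2, with no peak in replicate 3. DEX and PBS values did not overlap in normoxia or at 24 h, where only 2 PBS libraries had a value. PBS replicate 2 at 6 h exceeded the lowest DEX value of that time. How many sites of the series separated DEX from PBS in this way was not counted. Detection, 9 of 9 against 8 of 9, did not pass (exact adjusted p = 1.0).

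Its level could be tested, since the site was present in at least 15 of 18 libraries. The log2 tag count was 2.05 higher with DEX (SE 0.31, 95% interval 1.44 to 2.66, a 4.14-fold change, limma adjusted p = 4.08e-10), with the PBS library that lacked a peak left out. Of 164 sites tested in this way, 97.0% were higher with DEX (159 higher, 0 lower) and the median change was 1.66. With each library centred on its median log2 count, which removes that common shift, 39 sites were higher and 49 lower. The Lpin1 change was then 0.39 (limma adjusted p = 0.0419), and without normoxia PBS replicate 1 it was 0.34 and no longer passed (limma adjusted p = 0.0868). The mean DEX level of 540.4 ± 150.2 (SD, n = 9) stood at percentile 96.0 of the sites called in all DEX libraries, and within single DEX lists the site ranked between 14 and 96 by tags.

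The other Lpin1 sites formed a group farther upstream, 19.29 to 22.41 kb from the listed start. The most distant (chr12:16633252-16633504) held 144.9, 114.5 and 82.1 tags in normoxia with DEX, 107.5, 157.6 and 63.8 after 6 h, and 71.8, 102.8 and 121.8 after 24 h. With PBS it was called only in 6 h replicates 2 and 3, at 69.8 and 58.9 tags, the first inside the DEX range and the second just under it. The exact adjusted p of its 9 of 9 against 2 of 9 was 0.00859. The site 19.29 kb upstream (chr12:16630143-16630365) held 250.3, 239.6 and 127.7 tags in normoxia with DEX, 187.9, 353.4 and 152.2 after 6 h, and 143.6 and 202.5 in 24 h replicates 1 and 3. Its 1 PBS peak, in 6 h replicate 2, held 111.5 tags, under every DEX value (8 of 9 against 1 of 9, exact adjusted p = 0.0112). Its neighbour, centred 430 bp away (chr12:16630538-16630829), held 133.9 tags in normoxia DEX replicate 3, 109.4 in 6 h DEX replicate 3, and 160.7, 219.2 and 204.9 after 24 h with DEX. With PBS, 6 h replicate 2 held 151.0 tags, inside the DEX range, 6 h replicate 3 held 74.4, under it, and normoxia replicate 1 held 13.3, again a level that no DEX library could report (exact adjusted p = 0.704). One or the other of this pair was present in all 9 DEX libraries, and both were present in 4. Further single-library peaks lay 9.38 kb upstream (109.1 tags, 6 h DEX replicate 2) and 20.84 kb downstream (56.9 tags, normoxia DEX replicate 1).

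At Angptl4 the only site (chr17:33774817-33775140) overlapped the lower-coordinate end of the gene. It held 63.7, 67.8 and 53.4 tags in normoxia with DEX, 59.4 in 6 h replicate 1, and 51.3, 80.2 and 74.4 after 24 h. With PBS it held 47.1 in 6 h replicate 3, under every DEX value, and 11.9 in normoxia replicate 1, a level that no DEX library could report. Detection in 7 of 9 against 2 of 9 libraries did not pass (exact p = 0.064, adjusted 0.0975). The adjusted value was 0.0376 without 6 h DEX replicate 2, 0.0379 without 6 h DEX replicate 3, 0.0408 without normoxia PBS replicate 1 and 0.0206 without 6 h PBS replicate 3. The 6 h DEX library with the highest tag minimum, 86.6, was one of the 2 DEX libraries without the peak.

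**Figure D3:**
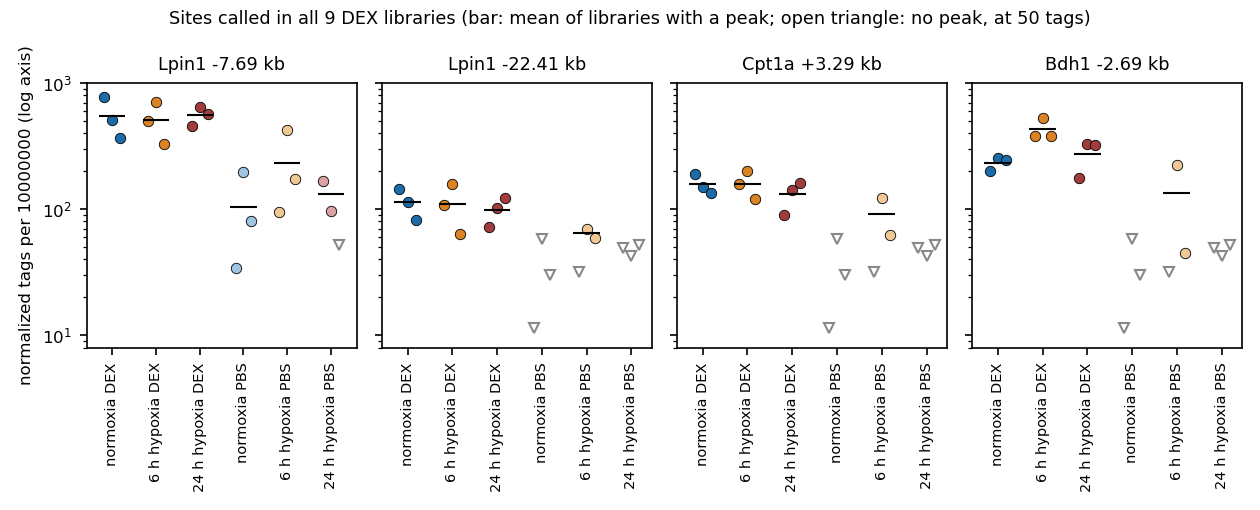
Normalized tags (log axis) at the 4 sites called in all 9 DEX libraries, by group, with 1 circle per library, a bar at the mean of libraries with a peak, and open triangles at the caller's 50-tag minimum where no peak was called. Bdh1 values after 6 h of hypoxia with DEX, 378.7 to 530.1, lie above those of normoxia, and 6 h PBS replicate 2 reaches into the DEX range at all 4 sites.

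PBS peaks at the 5 genes were concentrated in a few libraries. With PBS, 13 detections were in the 6 h group, 6 in normoxia and 2 at 24 h. Of the 6 in normoxia, 4 were in replicate 1, the deepest library and the one called with a larger peak size and tag limit. Over all sites, replicates 1 to 3 held 3915, 145 and 343 peaks in normoxia with PBS. They held 230, 751 and 622 at 6 h, and 260, 153 and 78 at 24 h. Within the 6 h group, replicates 2 and 3 had peaks at 6 sites each and replicate 1 at 1 site. Their libraries also had the largest peak numbers of the 6 h PBS group (751 and 622, against 230) and 1.23% and 0.624% of tags in peaks (against 0.240%), and the part of these differences in the result was not tested. With PBS, detection in hypoxia against normoxia gave 0 called sites of 632 by Fisher's exact test (0% in both directions), with 1 more and 2 less at an unadjusted p under 0.05. All 6 member sites tested had an exact adjusted p of 1.0. With 6 against 3 libraries Fisher's p cannot fall below 0.0119, so equal detection was not shown.

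The comparison of hypoxia with normoxia among DEX libraries asked whether low oxygen changed receptor occupancy at these genes. Member sites were detected in 40 of 54 library and site pairs in normoxia, 24 of 54 after 6 h and 25 of 54 after 24 h. Over all sites the lists were also shorter in hypoxia. They held 2235 to 3659 peaks in normoxia, 1485 to 2168 after 6 h and 1235 to 2287 after 24 h. The member counts are not adjusted for list length, nor for sites that entered the set through normoxia peaks alone. In Fisher's exact test per site, 0 of 15 member sites passed, as did 0% of the 2938 sites tested in either direction. With 6 against 3 libraries Fisher's p cannot fall below 0.0119, which came to 0.343 after adjustment over these sites. The adjusted value depends on how many sites reached that smallest p, and in these data none passed. Equal detection was not shown. At an unadjusted p under 0.05, 3 of the 2938 were called more often and 257 less often in hypoxia. The median difference in the share of libraries was -0.333 for the members and -0.167 for all sites.

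Acsl1 accounted for most of the difference. Its 6 sites gave 16 of 18 detections in normoxia with DEX, 4 of 18 after 6 h and 4 of 18 after 24 h. The 12 sites of the other genes gave 24, 20 and 21 of 36. A peak in any library was enough for a site to enter these sums. Acsl1 sites called only in normoxia with DEX are therefore included, which favours normoxia. Neighbouring Acsl1 sites were as close as 548 bp, so the pairs are not independent. The same sums over all sites were not made. The Acsl1 site 11.14 kb downstream of the start (chr8:46482079-46482280) held 122.9, 151.8 and 92.9 tags in normoxia with DEX and had no peak in the 6 hypoxic DEX libraries or in any PBS library. All 3 values exceeded the highest tag minimum among the hypoxic DEX libraries, 86.6. Fisher's exact p was 0.0119, the smallest this design can give, and 0.343 after adjustment. The pattern of 3 of 3 against 0 of 6 was found at 102 sites of the series. At this site it also held at a common threshold of 86.6 tags in every library and with every list held to its 1235 highest peaks. Other Acsl1 sites depended on list length. With lists of that equal length, the difference in the share of libraries went from -0.5 to 0.333 at the site 7.28 kb downstream and from -0.5 to -0.167 at the site 7.92 kb downstream (exact adjusted p = 1.0 for both). A further pair of sites, 0.73 kb upstream and 11.69 kb downstream of the start, were called in normoxia DEX replicates 1 and 2 alone, at 46.3 and 49.6 and at 92.6 and 96.4 tags. Normoxic DEX libraries held 2235 to 3659 peaks and hypoxic ones 1235 to 2287, and the summed Acsl1 counts were not compared at equal list length.

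**Figure D4:**
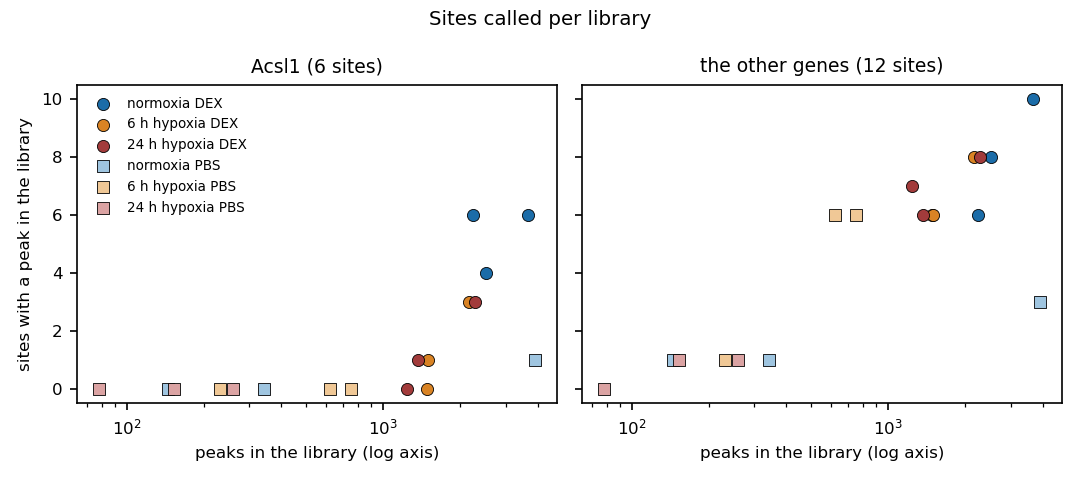
Number of sites with a peak in each library (vertical axis) against the number of peaks in that library (log axis), for Acsl1 on the left and the other 4 genes on the right, with circles for DEX and squares for PBS. Normoxia DEX libraries have 4 to 6 Acsl1 sites and hypoxic DEX libraries 0 to 3. The libraries with 3 sites, 6 h replicate 1 and 24 h replicate 3, are the hypoxic DEX ones with most peaks. Normoxia DEX replicate 2 has 6 Acsl1 sites with 2235 peaks, while 24 h DEX replicate 3 has 3 with 2287.

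At the 4 sites called in all DEX libraries, the tag counts themselves could be compared between oxygen conditions. These were log2 counts, centred on each library's median over 935 sites, in 1 limma model over the 9 DEX libraries. Both hypoxia contrasts share the 3 normoxia libraries. At the Bdh1 site the centred log2 level was 0.35, 0.76 and 0.82 in normoxia, 1.49, 1.39 and 1.73 after 6 h, and 0.97, 1.24 and 1.17 after 24 h. All 6 hypoxic libraries were above all 3 normoxic ones on this scale, while in uncentred tags 24 h replicate 1 was the lowest of the 9. The Bdh1 level was 0.69 higher in hypoxia (SE 0.14, 95% interval 0.39 to 0.99, limma adjusted p = 0.00957). In this contrast 3.10% of sites were higher (29) and 2.03% lower (19), and the median change was 0.05. At an unadjusted limma p under 0.05, 93 of the 935 sites were higher and 69 lower. How many sites separated the libraries fully was not counted. The change was 0.89 at 6 h (SE 0.16, limma adjusted p = 0.00916), where 1.71% of sites were higher and 0.856% lower. At 24 h it was 0.48 (SE 0.16, limma adjusted p = 0.0981), where 2.14% were higher and 2.03% lower. From 6 h to 24 h it changed by -0.41 (SE 0.16), which did not pass (limma adjusted p = 0.228), and 0.107% of sites were higher and 1.28% lower in that contrast.

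The Bdh1 call was lost without centring. The changes were then 0.54 in hypoxia (limma adjusted p = 0.833) and 0.88 at 6 h (limma adjusted p = 0.505). Centring raised the change of every site by the same amount, 0.15 for both times together, 0.01 at 6 h and 0.29 at 24 h. With the share of tags in peaks as a covariate, the changes were 0.58 (limma adjusted p = 0.126) and 0.82 (limma adjusted p = 0.0409). That share was 2.85% to 3.68% in normoxia DEX libraries, 1.93% to 3.15% after 6 h and 1.38% to 2.76% after 24 h. Without 6 h DEX replicate 3 the 6 h change was 0.79 and did not pass (limma adjusted p = 0.0708).

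At the other 3 sites no oxygen contrast passed. The main Lpin1 site changed by 0.14 in hypoxia (95% interval -0.25 to 0.52, limma adjusted p = 0.728), by -0.09 at 6 h and by 0.36 at 24 h, and turned to -0.01 in hypoxia without centring. The site 22.41 kb upstream of Lpin1 changed by -0.01 (95% interval -0.35 to 0.34). The Cpt1a site changed by 0.01 (95% interval -0.26 to 0.28), and by -0.14 without centring. These intervals leave room for changes of about the sizes they span, so equal binding was not shown.

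**Figure D5:**
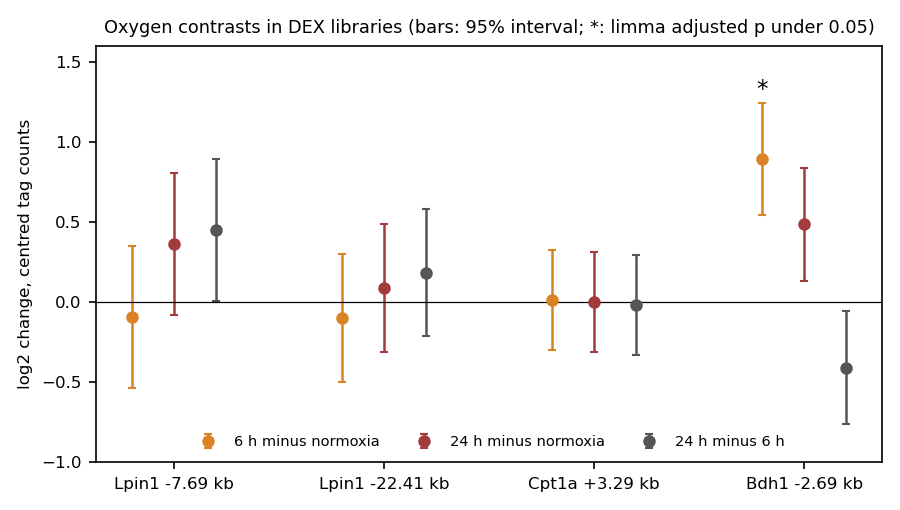
Log2 change of centred tag counts between oxygen conditions in the DEX libraries at the 4 sites called in all of them, with 95% intervals from the limma model (n = 3 libraries a condition). The asterisk marks the limma adjusted p under 0.05 among the 12 contrasts drawn, for Bdh1 at 6 h (0.89).

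The sites whose centred tag counts followed those of the members most closely over the 9 DEX libraries were picked by Pearson's r, as a description. All sites were measured in the same 9 libraries, so they share each library's depth, input and centring. The main Lpin1 site was followed most closely by sites 1.9 kb from the nonagouti gene a (r = 0.976), inside Ube2g2 (r = 0.975) and 355.7 kb from Myc (r = 0.968). The Lpin1 site farthest upstream was followed by a site 27.5 kb from Ppp1r3b, which encodes a hepatic glycogen-targeting subunit of protein phosphatase (r = 0.976), and by sites nearest to Gadd45g (r = 0.925) and Blm (r = 0.92). For the Cpt1a site these were sites 32.3 kb from Dhx8 (r = 0.945), 88.8 kb from Maf (r = 0.835) and 3 kb from Igfbp1, a gene of an insulin-like growth factor binding protein (r = 0.81). For the Bdh1 site they lay inside Ppp1r14b (r = 0.938), 3.4 kb from Mtarc2 (r = 0.927) and inside Gne (r = 0.896).

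Other genes of fatty acid handling gave a background for these 5. Of 56 further genes of uptake, activation, beta-oxidation, ketone metabolism and their regulators, 24 had a site (41 sites) and 32 had none. Of 18 sites tested, 9 in 5 genes were called more often with DEX and 0 less often, with a median share difference of 0.556. Ppara, the gene of PPAR alpha itself, held a site called in 9 DEX and 1 PBS library at 267 ± 61.7 tags with DEX (SD, n = 9, exact adjusted p = 0.00438). Acacb, whose enzyme makes the malonyl-CoA that inhibits the carnitine acyltransferase, held one called in 9 DEX and 0 PBS libraries (97.6 ± 33.0 tags, exact adjusted p = 0.00307). Pnpla2, the gene of adipose triglyceride lipase, held one called in 9 and 1 (94.1 ± 21.6 tags, exact adjusted p = 0.00438). The 1 PBS peak of this Pnpla2 site held 107.0 tags, above its DEX mean. That of the Ppara site held 138.6 tags, under its DEX mean. Ppargc1b, a coactivator gene, and Creb3l3, a fasting-induced transcription factor gene, had sites called in 9 and 2 and in 7 and 2 libraries (exact adjusted p = 0.00859 and 0.0452). Mean tags were 185.0 with DEX and 120.8 with PBS at the Ppargc1b site, and 98.0 and 65.5 at the Creb3l3 site. At the 5 sites of this list called in all DEX libraries, the hypoxia changes were -0.03 to 0.11 and none passed (lowest limma adjusted p = 0.727). The Bdh1 change of 0.69 lay above that range; the difference between Bdh1 and these sites was not tested.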

How the data were processed

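Receptor binding was measured by ChIP-seq in 18 mouse livers. Per the submitters' processing notes, Trimmomatic, BWA 0.7.17, SAMtools 1.10, HOMER and mm10 were used. Per the file headers, HOMER called peaks in each library against an input of the same oxygen condition, at 50 tags, 4-fold over input and local tags, and a Poisson p of 1e-04. As deposited signal, each peak carries the authors' tag count per 10000000 tags. The deposited ratio, the authors' fold over input, was used only to describe peaks.

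Peaks overlapping by 1 bp were merged. A site's value in a library is its highest peak's, and libraries without a peak have no value. Genes came from a RefSeq table (GRCm38.p6, 21883 protein-coding genes). Detection was tested at sites in 3 or more of 18 libraries (DEX against PBS) or 2 or more of 9 (hypoxia) with exact Cochran-Mantel-Haenszel or Fisher tests, and log2 tags with limma 3.58.1 in R 4.3.3, with Benjamini-Hochberg adjustment over all sites and a threshold of 0.05. Hypoxia contrasts used sites in all 9 DEX libraries, centred per library, and DEX against PBS used sites in 15 or more libraries, uncentred. Scripts were tested on simulated data. Depth limits detection. Scaled tags exist only where a peak was called, so the PBS level may be overstated where libraries without a peak are left out. Other merging, thresholds, minimums, scaling, covariates, a replicate block and leaving out each library were alternatives. The equal list length, covariate and double alternatives were chosen after seeing the data. All 18 member sites are described, with values per library where a site was called in all 9 DEX libraries, passed a test or was called in all libraries of a group. Further pathway genes are named where a site passed a test or was called in all 9 DEX libraries, and the 3 sites of other genes with the highest r for each member site called in all DEX libraries. The members and gene lists were chosen with earlier results of these data known. Inputs were not analysed here as samples.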

Additional observations from a re-analysis of the deposited data

How the results depend on the processing

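Tag counts below are limma changes on the log2 scale and detection values are differences in the share of libraries. The direction of every called member result held under all alternatives run. Series-wide, 1418 of 2563 sites tested were called more often with DEX. This became 757 of 1212 at a common threshold and 929 of 7398 with no minimum of libraries. It was 921 of 2563 with a replicate block and 30 of 140 at equal list length. With each library left out it ranged from 1309 to 1607, with 2236 to 2563 sites tested. The 1 site called less often became 0 with the block and 13 at equal list length. Of the 13 member sites, 4 were called with the block, 4 with no minimum of libraries, 4 of 7 at the common threshold and 0 of 1 at equal list length. With the lists in that form few member sites remained to be tested. Leaving out 1 library each gave 5 to 8 called member sites.

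For tags with DEX against PBS, the 159 higher and 0 lower sites became 39 and 49 with centring, 39 and 46 with centring and without normoxia PBS replicate 1, and 59 higher among sites in all 18 libraries. With missing values at 50 tags 1 site was lower, and leaving out 1 library gave 133 to 160 higher and 0 lower. The Lpin1 change was 1.84 to 2.26 in those fits.

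For hypoxia with DEX, higher and lower sites numbered 2 and 9 without centring and 5 and 10 with the covariate, and 31 were lower with the block. They ranged from 15 to 41 and 8 to 24 with each library left out. At 6 h they were 2 and 1 without centring, 25 and 15 with the block and 7 and 5 with the covariate (leaving out 1 library, 2 to 32 and 3 to 13). At 24 h, 2 were higher without centring, 41 and 40 passed with the block and 6 and 10 with the covariate (leaving out 1 library, 6 to 37 and 13 to 44). For 24 h against 6 h, 0 were higher without centring, and 14 and 29 passed with the block (leaving out 1 library, 0 to 6 and 5 to 22). The Bdh1 change was 0.54 to 0.77 in hypoxia, 0.74 to 0.98 at 6 h and 0.34 to 0.58 at 24 h with each library left out.

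Some values that were not called turned direction. At equal list length the detection difference in hypoxia with DEX went from -0.5 to 0.333 at the Acsl1 site 7.28 kb downstream and from -0.333 to 0.5 at Angptl4. With PBS that of the main Lpin1 site went from -0.167 to 0.5, both at equal list length and at the common threshold. Without centring the hypoxia changes were -0.014 at the main Lpin1 site and -0.14 at Cpt1a, and with the covariate that at the Lpin1 site farthest upstream was 0.22. With 1 library left out, the main Lpin1 site ranged from -0.083 to 0.37 in hypoxia and from -0.31 to 0.15 at 6 h. In hypoxia, the Lpin1 site farthest upstream ranged from -0.18 to 0.15 and Cpt1a from -0.058 to 0.11. With PBS, the detection difference of the Lpin1 site 19.72 kb upstream ranged from -0.167 to 0.333. The cause of these changes was not tested.

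The main tests did not pair libraries by replicate number, and whether the numbers mark a pairing was not settled here. Correlations of deviations between same-numbered DEX libraries were 0.01 to 0.51, with 7 of 9 above 0.1. Of the 9 DEX libraries, 6 correlated best with their own number. With the replicate block, 4 of 13 member sites were called in the DEX detection test, against 6 without it. Of all 2563 sites tested, 921 were called more often with the block and 1418 without it. With the replicate block the Bdh1 change in hypoxia was 0.69 (limma adjusted p = 0.00451). The minimum of 50 unscaled tags stood for 86.6 normalized tags in the shallowest library, so depth limits which low sites could be called there. Member sites numbered 17 within 25 kb and 19 within 100 kb.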
